A study of Mus musculus with 4 samples.

Results

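Aminoacyl-tRNA synthetases join each amino acid to its transfer RNA, and so supply the charged tRNAs that ribosomes use. Their genes were examined in primary mouse hepatocytes kept with or without fructose, in the presence or absence of ChREBP, which switches on genes of sugar use and fat synthesis in response to sugar. Members were chosen by gene symbol alone, as probe sets whose only listed gene has a synthetase name. Earlier results of these data were known when the members and the gene lists used below were chosen. This gave 34 genes of 22180 named genes: 18 cytosolic synthetases and 16 mitochondrial ones, which carry the suffix 2. Gars and Kars were placed with the cytosolic group although each encodes both a cytosolic and a mitochondrial enzyme. Aars was listed only on a probe set shared with another gene and was not analysed here.

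Hepatocytes came from 2-month-old male mice, either wild type (WT) or Chrebp-KO (KO, which lack ChREBP, encoded by Mlxipl). Cells of each genotype spent 16 h in medium free of serum, either with 25 mM fructose or without it (control). This made 4 groups with 1 array each, so no difference below has a replicate check and no test could be run. The labels leave out the deleted stretch of the gene, the number of animals that gave cells, and any pooling of cultures.

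Values are log2 expression after robust multi-array average (RMA), a method that makes the arrays' distributions alike. They give differences between arrays for a gene, but they do not rank genes by abundance. Levels are listed as control then fructose, first for WT and then for KO. Background was set at 4.76 (log2), the 95th percentile of 1105 olfactory receptor genes. A gene was counted when its mean over the 4 arrays exceeded this level, which held for 10421 genes and for 33 of the 34 synthetases. Mars2, the mitochondrial methionyl enzyme, lay below it on all 4 arrays and was left out of counts and medians.

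Mlxipl had log2 levels of 8.08 and 8.43 in WT and 7.42 and 7.37 in KO, so it was lower on both KO arrays. All 7 measured hepatocyte markers were above background, with a mean log2 level between 10.09 and 10.38 on the 4 arrays. Markers of other liver cells were also present. Of 9 macrophage markers 7 were above background (not Adgre1 and C1qc), and the mean level of all 9 was 6.38 and 6.40 on the WT arrays and 5.95 on both KO arrays. Of 6 endothelial markers 4 were above background (not Stab2 and Clec4g), with mean levels of all 6 at 6.09 and 5.96 in WT and 5.81 and 5.65 in KO. Stellate markers (2 of 6 above background) and cholangiocyte markers (1 of 4) were mostly at background. The exception among cholangiocyte markers was Sox9, with levels of 9.8 and 10.3 in WT and 9.4 and 10.2 in KO. Krt19, Krt7 and Epcam were below background. In such mixed RNA, fewer cells of a type and less RNA per cell cannot be told apart.

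As background, the cytosolic and mitochondrial protein synthesis systems use separate synthetases for most amino acids, all encoded in the nucleus. Several cytosolic synthetases sit together in a multisynthetase complex, while the others are free. By fold, synthetases belong to class I or class II. Many cytosolic synthetase genes are known targets of ATF4, the transcription factor of the integrated stress response, which stress in the endoplasmic reticulum can switch on.

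With fructose, the cytosolic synthetases as a group differed little in either genotype, whereas most mitochondrial synthetases were lower in both. In WT the median log2 difference, fructose minus control, was 0.05 over 18 cytosolic genes and -0.19 over 15 mitochondrial genes, beside -0.03 over all genes above background. In KO these medians were 0.01 and -0.16, beside -0.00 over all genes. Of the cytosolic genes 12 lay above 0 in WT and 10 in KO, or 66.7% and 55.6%, where 47.2% and 49.7% of all genes did. Of the mitochondrial genes 11 lay below 0 in WT and 12 in KO, or 73.3% and 80.0%, where 52.8% and 50.3% of all genes did. The 12 in KO include Nars2 (-0.01), which had no stable sign. It turned to 0.002 when the arrays were median-centred, and its brighter probe set gave 0.16. The WT and KO comparisons use separate arrays, and 11 of 15 mitochondrial genes were below 0 in both (73.3%, against 40.6% of all genes).

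No synthetase above background differed by 2-fold in any comparison. Of all genes, 6.1% passed 2-fold in either direction with fructose in WT and 2.85% in KO. At 1.5-fold, 1 of 18 cytosolic genes was higher with fructose in WT (all genes 9.39%), none was lower, and none passed in KO. Among mitochondrial genes 3 of 15 were at least 1.5-fold lower in WT (all genes 10.9%) and 2 of 15 in KO (all genes 5.67%). None was 1.5-fold higher, as were 6.15% of all genes in KO. These counts are small, and the shares of the cytosolic group lie below those of all genes.

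**Figure D1:**
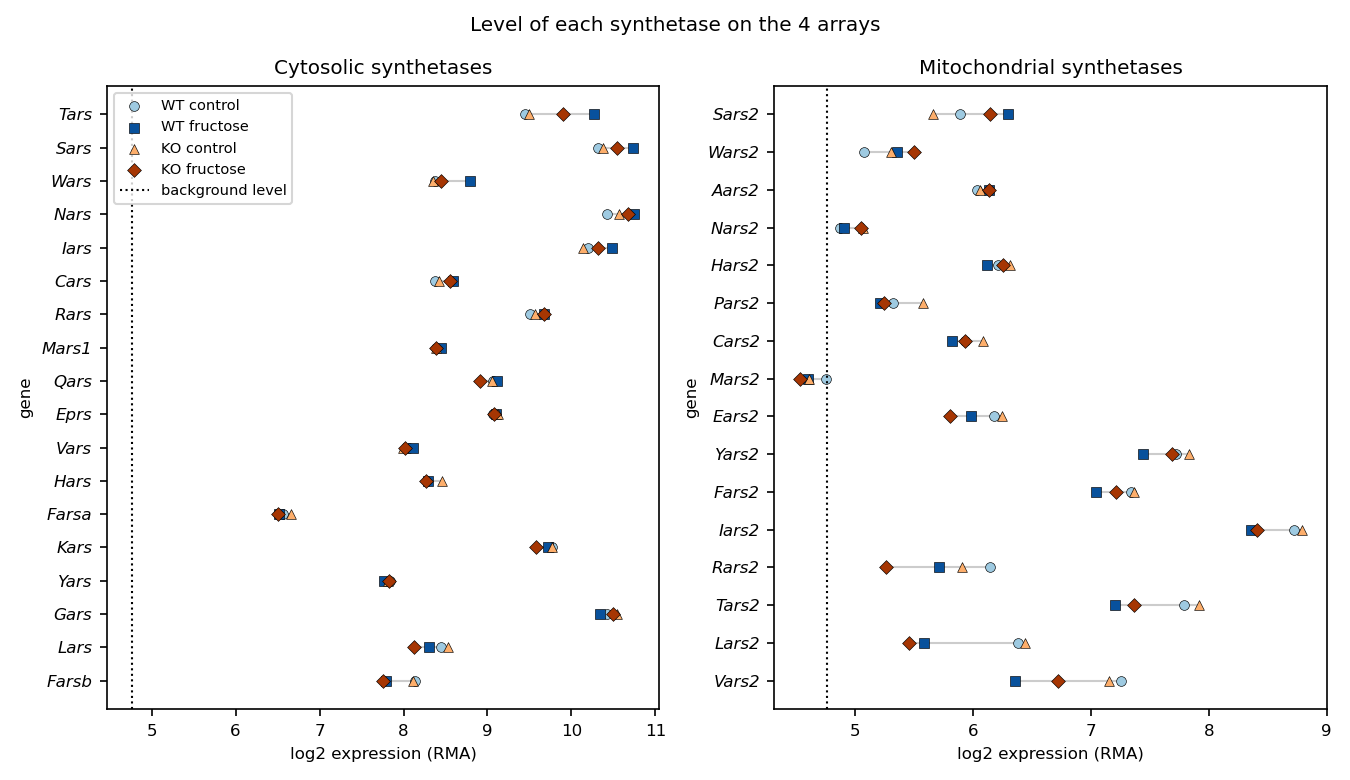
Log2 expression (RMA) of each synthetase on the 4 arrays (1 point per array), genes ordered by the fructose difference in WT, with the background level as a dotted line. Most cytosolic genes have points that nearly coincide, Tars has a WT fructose value of 10.27 apart from the rest, and Mars2 lies at or left of the background line.

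Tars, the threonyl-tRNA synthetase, was the cytosolic member at least 1.5-fold higher. Its log2 level was 9.45 and 10.27 in WT and 9.50 and 9.91 in KO. Both fructose arrays were above both control arrays, and the WT fructose array was the highest. The difference was 1.77-fold in WT and 1.33-fold in KO, and 4.64% of all genes were raised as far in WT.

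Tars and its mitochondrial counterpart Tars2 differed in opposite directions with fructose, so the 250 bases before each start site are shown. They are from RefSeq on GRCm38.p6, minus strand, 5′ to 3′, at chr15:11399659-11399908 for Tars and chr3:95754978-95755227 for Tars2. Capitals mark matches to the core of the C/EBP-ATF response element searched (TGATGNAA, on either strand), a type of site that ATF4 can bind. The same windows were searched for the E-box CACGTG, a motif that ChREBP sites contain.
Tars: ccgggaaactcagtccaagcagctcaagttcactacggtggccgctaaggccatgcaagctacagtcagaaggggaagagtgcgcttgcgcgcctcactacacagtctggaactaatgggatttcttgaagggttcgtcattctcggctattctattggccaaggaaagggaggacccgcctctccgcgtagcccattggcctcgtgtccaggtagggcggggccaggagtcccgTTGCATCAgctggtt
Tars2: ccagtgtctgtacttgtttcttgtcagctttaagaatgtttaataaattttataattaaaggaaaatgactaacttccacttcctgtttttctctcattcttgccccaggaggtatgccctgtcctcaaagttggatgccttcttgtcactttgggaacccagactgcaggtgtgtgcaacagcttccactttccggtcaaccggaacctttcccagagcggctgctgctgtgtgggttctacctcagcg
The Tars stretch holds 1 match to TGATGNAA close to the start site, and the Tars2 window holds neither motif.

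Promoter windows of 300 bases (250 before the start site and 50 from it on) were given for 25 of the 34 genes, 26 windows in all. The TGATGNAA core was in 4 of these windows (15.4%), those of Tars, Gars, Iars and Yars, and in 3.97% of all 32851 RefSeq windows. Each match is shown with 11 bases on either side, in the gene's own 5′ to 3′ direction, to set the sites side by side. They lie at chr15:11399655-11399684 (minus strand) for Tars, chr13:49682126-49682155 (plus) for Iars, chr6:55037960-55037989 (plus) for Gars and chr4:129189895-129189924 (plus) for Yars.
Tars: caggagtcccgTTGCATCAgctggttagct
Iars: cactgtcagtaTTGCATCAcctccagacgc
Gars: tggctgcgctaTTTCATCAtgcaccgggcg
Yars: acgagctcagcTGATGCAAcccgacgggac
Tars and Iars carry the same 8 letters, and Yars carries the same site on the opposite strand, while Gars has TTTCATCA. The fructose differences of these 4 genes in WT were 0.82 for Tars, 0.29 for Iars, -0.09 for Gars and -0.07 for Yars, so the genes with a match did not share a direction. CACGTG was also in 4 of the 26 windows, beside 7.15% of all windows, in Tars, Iars, Farsb and Ears2, with WT differences of 0.82, 0.29, -0.34 and -0.19. A match describes letters in the window and does not show binding.

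Sars, Wars, Nars and Iars were the other cytosolic genes in the upper quartile of all genes in WT, above a log2 difference of 0.24. With Tars these were 5 of 18 genes (27.8%), close to the share a quartile holds. Sars, the seryl enzyme, had log2 levels of 10.31 and 10.73 in WT and 10.38 and 10.54 in KO. Its difference of 0.42 in WT was 0.16 in KO. Wars, the tryptophanyl enzyme and a gene known to respond to interferon, had levels of 8.37, 8.79, 8.35 and 8.45 in the same order. The WT fructose array alone stood above the other 3. Nars, the asparaginyl enzyme, had levels of 10.43, 10.75, 10.56 and 10.68, and a difference of 0.32 in WT and 0.12 in KO. Iars, the isoleucyl enzyme of the multisynthetase complex, differed by 0.29 in WT and 0.18 in KO. In KO, Tars was the only 1 of the 5 above the upper quartile of all genes (0.22).

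Farsb and Lars were the cytosolic genes with the lowest differences. Farsb, the beta subunit of phenylalanyl-tRNA synthetase, had log2 levels of 8.14 and 7.80 in WT and 8.11 and 7.75 in KO. The drop from control was 1.27-fold in WT and 1.28-fold in KO. Farsa, the catalytic alpha subunit of the same enzyme, differed by -0.04 and -0.15. Lars, the leucyl enzyme, which also acts as a leucine sensor for mTORC1, had levels of 8.45, 8.30, 8.53 and 8.12, a difference of -0.15 in WT and -0.41 in KO.

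The remaining cytosolic genes stayed close to their control level. Hars, the histidyl enzyme, had log2 levels of 8.27, 8.29, 8.46 and 8.27, highest on the KO control array. Gars, the glycyl enzyme, had 10.42, 10.34, 10.54 and 10.50, and Kars, the lysyl enzyme, 9.77, 9.72, 9.77 and 9.57. Qars, the glutaminyl enzyme, had 9.06, 9.11, 9.06 and 8.91, and differed by 0.05 in WT and -0.15 in KO. Mars1, the methionyl enzyme, had 8.39, 8.45, 8.39 and 8.39, a range of 0.06 over the 4 arrays. Rars, the arginyl enzyme, had 9.51, 9.67, 9.56 and 9.67. Eprs, which joins both glutamate and proline to their tRNAs, differed by 0.05 in WT and -0.04 in KO, Vars by 0.05 and 0.03, Yars by -0.07 and 0.01, and Cars by 0.21 and 0.13. The KO value of Yars changed sign to -0.03 when the arrays were quantile-normalized again, and that of Mars1 was 0.003.

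Complex and free cytosolic enzymes had similar medians with fructose. Over the 7 complex enzymes (Eprs, Iars, Kars, Lars, Mars1, Qars and Rars) the median fructose difference was 0.05 in WT and -0.04 in KO. Over the 11 free ones it was 0.05 and 0.03. By class, cytosolic medians were 0.06 in WT and 0.03 in KO for the 9 class I genes, and -0.01 and -0.10 for the 8 class II genes, leaving out Eprs, which is both.

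**Figure D2:**
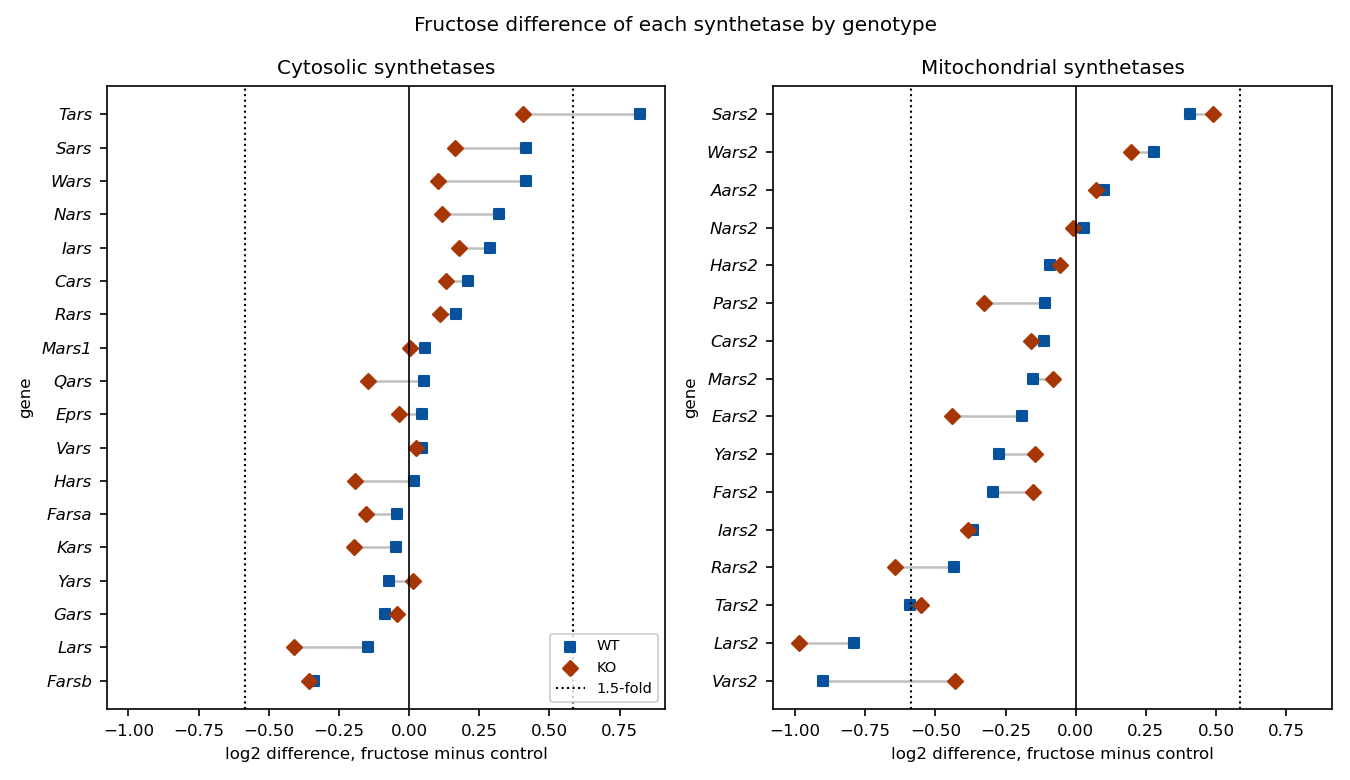
Log2 difference, fructose minus control, of each synthetase in WT (squares) and KO (diamonds), with 1.5-fold marked by dotted lines. Tars in WT is right of the line, and Vars2, Lars2 and Tars2 in WT and Lars2 and Rars2 in KO are left of it.

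Vars2, Lars2 and Tars2 were the mitochondrial genes at least 1.5-fold lower with fructose in WT. Vars2, the valyl enzyme, had log2 levels of 7.25 and 6.36 in WT and 7.15 and 6.72 in KO. Both fructose arrays were below both control arrays, by 1.86-fold in WT and 1.35-fold in KO. Lars2, the leucyl enzyme, had levels of 6.38, 5.59, 6.44 and 5.46 in the same order, 1.73-fold lower in WT and 1.98-fold in KO. In KO only 1.21% of all genes were lowered as far as Lars2. Tars2, the threonyl enzyme, had levels of 7.79, 7.20, 7.92 and 7.37, 1.51-fold lower in WT and 1.46-fold in KO, so it lay just past the threshold in WT and just short of it in KO. When the arrays were quantile-normalized again it fell short in WT too (1.49-fold), which left 2 of 15 mitochondrial genes past 1.5-fold.

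Rars2, the arginyl enzyme, had log2 levels of 6.14 and 5.71 in WT and 5.90 and 5.26 in KO. It was 1.35-fold lower with fructose in WT and 1.56-fold in KO, and also lower in KO than in WT in both media. Iars2, the isoleucyl enzyme, had levels of 8.72, 8.36, 8.79 and 8.41, and nearly the same difference in each genotype, -0.37 in WT and -0.38 in KO. These 5 genes were the mitochondrial members below the lower quartile of all genes in WT (-0.31), 5 of 15 or 33.3%. In KO, Ears2 and Pars2 joined them below a quartile of -0.21, making 7 of 15 or 46.7%.

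Ears2, the glutamyl enzyme, also charges the mitochondrial glutamine tRNA with glutamate, which the amidotransferase encoded by Qrsl1, Gatb and Gatc then converts. Its log2 levels were 6.17 and 5.98 in WT and 6.25 and 5.81 in KO. Gatb differed with fructose by -0.48 in WT and -0.66 in KO, Gatc by -0.58 and -0.54, and Qrsl1 by 0.16 and 0.15, so the 3 subunits did not share a direction. Pars2, the prolyl enzyme, had levels of 5.32, 5.21, 5.57 and 5.25, and its KO control array stood above the other 3. Yars2, the tyrosyl enzyme, had 7.72, 7.44, 7.83 and 7.68.

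Sars2, the mitochondrial seryl enzyme, went the other way. Its log2 levels were 5.89 and 6.30 in WT and 5.66 and 6.15 in KO, so both fructose arrays were above both control arrays, by 1.33-fold in WT and 1.40-fold in KO. Wars2, the tryptophanyl enzyme, was higher by 0.28 and 0.20, and Aars2, the alanyl enzyme, with levels of 6.04, 6.14, 6.06 and 6.13, by 0.10 and 0.07. Nars2, the asparaginyl enzyme, had levels of 4.87, 4.90, 5.06 and 5.05, close to background. Of the others, Fars2 differed by -0.29 in WT and -0.15 in KO, Cars2 by -0.11 and -0.16 and Hars2 by -0.09 and -0.06. By class, the 8 class I mitochondrial genes had medians of -0.32 in WT and -0.41 in KO, and the 7 class II genes -0.09 and -0.06.

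Both compartments' enzymes were measured for 15 amino acids, and for 12 of them 1 cytosolic gene pairs with 1 mitochondrial gene of the same name plus the suffix. These 12 pairs are counted here. In WT the cytosolic gene had the higher fructose difference in 12 of 12 pairs, with a median gap of 0.31 on the log2 scale, and in KO in 9 of 12, with a median gap of 0.23. The gap was 1.41 for Tars and Tars2 in WT and 0.96 in KO, and 0.94 and 0.46 for Vars and Vars2. It was 0.65 and 0.56 for Iars and Iars2, 0.64 and 0.58 for Lars and Lars2, and 0.60 and 0.75 for Rars and Rars2. Sars and Sars2 barely differed in WT (0.01), and in KO Sars2, Wars2 and Hars2 had the higher difference. The Mars1 and Mars2 pair counts here although Mars2 was below background. The other 3 amino acids have no such pair. For phenylalanine, Farsb (-0.34 in WT and -0.36 in KO) lay below the mitochondrial Fars2 (-0.29 and -0.15), against the direction of the 12 pairs. The other subunit gene, Farsa, lay above Fars2 in WT (-0.04) and level with it in KO (-0.15). Eprs (0.05 and -0.04) lay above both Ears2 (-0.19 and -0.44) and Pars2 (-0.11 and -0.33), its counterparts for glutamate and proline.

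**Figure D3:**
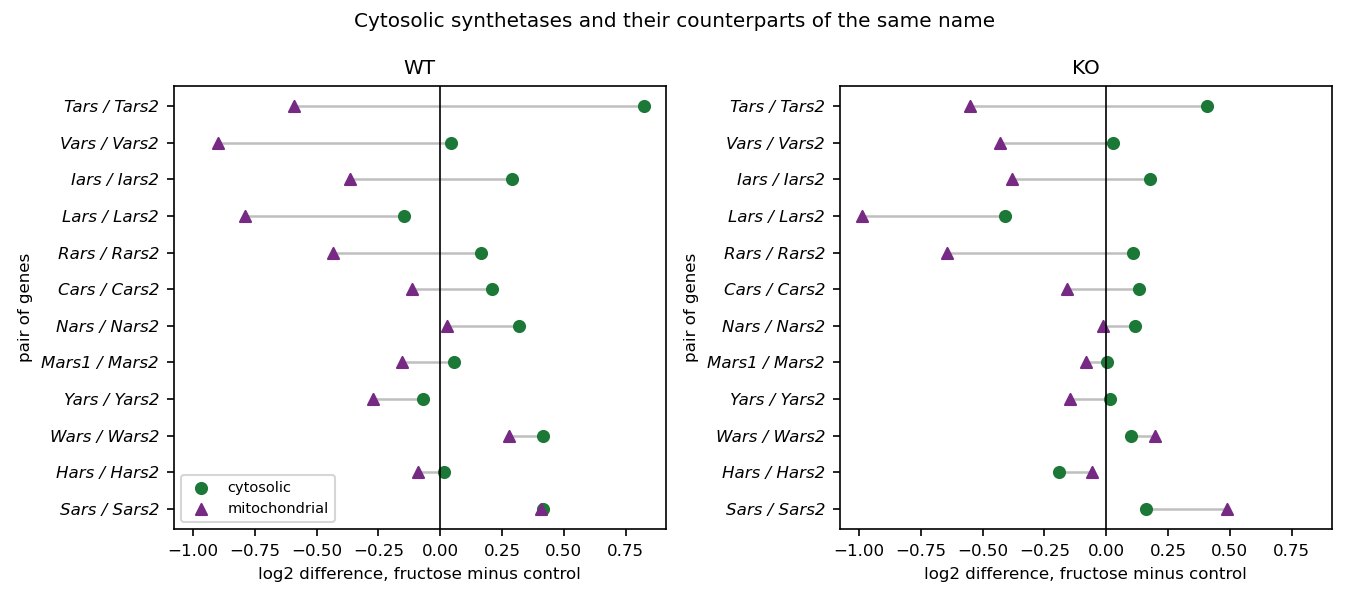
Log2 difference, fructose minus control, of the cytosolic (circles) and mitochondrial (triangles) synthetase in the 12 pairs of the same name, in WT and in KO. The circle lies right of the triangle in 12 of 12 pairs in WT and in 9 of 12 in KO; phenylalanine, glutamate and proline, which have no such pair, are not drawn, and Farsb (-0.34) lay below Fars2 (-0.29) in WT.

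Other genes of the pathway were described from lists. Mitochondrial ribosome proteins had a median fructose difference of -0.20 in WT and -0.14 in KO over 66 genes, with 8 at least 1.5-fold lower in WT (12.1%, all genes 10.9%), 1 in KO (1.52%, all genes 5.67%) and none higher. These shares were near that of all genes in WT and below it in KO. Mrpl49 differed by -1.01 in WT, Mrps25 by -0.98 and Mrpl20 by -0.80. Mitochondrial translation factors had medians of -0.34 and -0.23 over 12 genes. Of these, 1 was at least 1.5-fold lower in WT (8.33%, all genes 10.9%) and 3 in KO (25.0%, all genes 5.67%). Guf1, a mitochondrial elongation factor, was lower by 1.05 in WT and 0.77 in KO, with log2 levels of 5.97, 4.92, 6.05 and 5.29. Mtif2, an initiation factor, differed by -0.57 and -0.60 and Lrpprc, which stabilises mitochondrial messenger RNA, by -0.52 and -0.59. The medians of the mitochondrial synthetases, -0.19 and -0.16, had the same sign as those of both lists.

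Cytosolic translation factors had medians of 0.00 in WT and -0.01 in KO over 35 genes. None of the 35 differed 1.5-fold with fructose (all genes, WT: 9.39% up, 10.9% down, KO: 6.15% up, 5.67% down). Among them Eif2b4 differed by 0.51 in WT and -0.08 in KO, Eif4a2 by 0.50 and 0.57, and Eif4ebp2, an inhibitor of cap-dependent initiation, by -0.43 and -0.45. Genes of tRNA processing and export had medians of 0.10 and 0.06 over 30 genes, with 3 at least 1.5-fold higher in WT (10.0%, all genes 9.39%) and 1 in KO (3.33%, all genes 6.15%), shares near or below those of all genes. Xpot, which exports tRNA from the nucleus, differed by 0.97 in WT and 0.50 in KO, Trmt61a, a tRNA methyltransferase, by 0.76 and 0.59, and Rpp38, a subunit of ribonuclease P, by 0.65 and 0.28. Partners of the synthetases had medians of -0.13 and -0.07 over 12 genes. Dtd2, which removes wrongly attached amino acids from tRNA, differed by -0.45 and -0.90. Dtd2 and Gatb were the 2 of 12 partners at least 1.5-fold lower in KO (16.7%, all genes 5.67%).

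The list called ATF4-type factors holds 17 genes, among them the kinases of the initiation factor eIF2 (Eif2ak1, Eif2ak2, Eif2ak3 and Eif2ak4). Of the 17 genes 9 were at least 1.5-fold higher with fructose in each genotype (52.9%, all genes 9.39% in WT and 6.15% in KO). Their median was 0.64 in WT and 0.59 in KO. Not all were higher: 4 lay below 0 in WT and 3 in KO (23.5% and 17.6%, all genes 52.8% and 50.3%). The kinase gene Eif2ak2 was at least 1.5-fold lower in WT (-0.59, and -0.22 in KO). Atf5, a transcription factor related to ATF4, differed by -0.47 and -0.23. Atf4 had log2 levels of 8.82 and 9.80 in WT and 8.80 and 9.57 in KO. Ddit3, which encodes the stress factor CHOP, differed by 3.19 and 2.70, Atf3 by 2.85 and 2.29 and Chac1, a glutathione-degrading enzyme, by 2.21 and 1.13. Genes of amino acid synthesis and import had medians of 0.28 and 0.31 over 19 genes. Of these, 4 were at least 1.5-fold higher in WT (21.1%) and 3 in KO (15.8%). In each genotype 1 was lower (5.26%, all genes 10.9% in WT and 5.67% in KO). Asns, asparagine synthetase, differed by 0.11 and 0.21. Aldh18a1, an enzyme of proline synthesis, differed by 1.17 and 0.52, Got1 by 1.04 and 0.48, and Gpt2, an alanine aminotransferase, by -1.24 and -1.13.

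**Figure D4:**
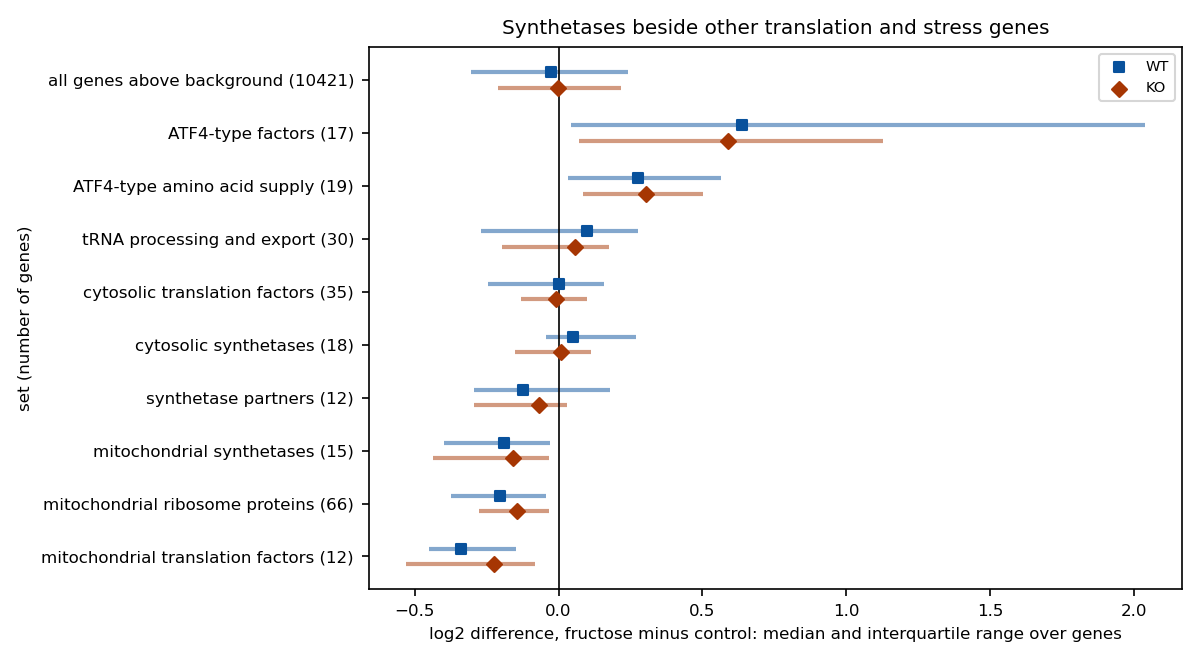
Median (points) and interquartile range over genes (bars) of the log2 difference, fructose minus control, in WT and KO for the synthetases, other gene lists and all genes above background, with the number of genes in brackets. ATF4-type factors have medians of 0.64 and 0.59, cytosolic synthetases 0.05 and 0.01, and the 3 mitochondrial sets between -0.34 and -0.14.

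Without fructose, the genotypes differed little in the synthetases. The median log2 difference, KO minus WT, was 0.04 for cytosolic and 0.07 for mitochondrial genes, beside -0.01 for all genes. No synthetase passed 1.5-fold, as did 0.422% of all genes upwards and 1.03% downwards (0.221% passed 2-fold in either direction). Hars was higher in KO by 0.18, Nars by 0.14 and Gars by 0.12. Qars (-0.003) and Kars (0.003) hardly differed. Among mitochondrial genes Pars2 was higher in KO by 0.25, and Rars2 and Sars2 lower by 0.24 and 0.23. The mitochondrial group had 12 of 15 genes above 0, where 47.7% of all genes were.

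In fructose medium most cytosolic synthetases were slightly lower in KO than in WT. The median difference was -0.06, and 16 of 18 genes (88.9%) lay below 0, where 47.0% of all genes did. In control medium 7 of 18 did (38.9%, all genes 52.3%). Tars was 1.29-fold lower in KO, Wars 1.26-fold and Qars 1.15-fold. The exceptions were Gars (0.16) and Yars (0.06), and the values of Rars (-0.002) and, among mitochondrial genes, Aars2 (-0.002) had no stable sign, since another scaling of the arrays turned Rars to 0.01 or 0.03 (leaving 15 of 18 below 0) and Aars2 to 0.01 or -0.03. All 7 enzymes of the multisynthetase complex were below 0 in the deposited values, with a median of -0.15. No synthetase passed 1.5-fold, as did 2.39% of all genes upwards and 2.68% downwards (1.23% passed 2-fold).

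Mitochondrial synthetases did not share that direction. Their median KO minus WT difference in fructose medium was 0.11, with 10 of 15 above 0, beside 53.0% of all genes. Vars2 was higher in KO by 0.37 and Yars2 by 0.24, while Rars2 was lower by 0.45 and Ears2 by 0.18. The median KO minus WT difference of the 9 macrophage markers was -0.36 in control and -0.45 in fructose medium, and that of the 6 endothelial markers -0.30 and -0.31. Their part in the genotype differences of the synthetases was not tested.

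**Figure D5:**
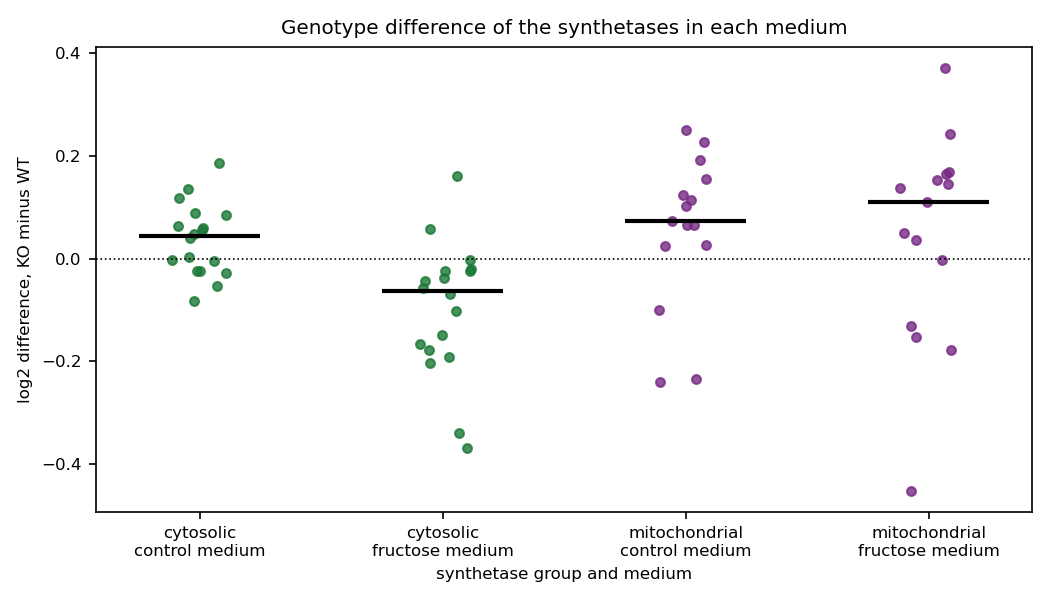
Log2 difference, KO minus WT, of each synthetase above background in control and fructose medium (points, spread sideways for visibility), with the median of each group as a black line. Of the 18 cytosolic genes 16 lie below 0 in fructose medium and 7 in control medium, and the mitochondrial medians are 0.07 and 0.11.

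The fructose effect was smaller or more negative in KO than in WT for most cytosolic synthetases. The difference of effects, KO minus WT, had a median of -0.11 over 18 genes, beside 0.03 over all genes, and 16 of 18 lay below 0, where 44.1% of all genes did. This comparison uses the same 4 arrays as those above and restates them for each gene. Tars had a difference of effects of -0.42, Wars -0.31, Lars -0.26 and Sars -0.25. Farsb (-0.02) and the mitochondrial Iars2 (-0.02) had nearly equal effects in both genotypes. For mitochondrial genes the median was -0.03, with Vars2 at 0.47, Ears2 at -0.25 and Pars2 at -0.22. No synthetase reached 1.5-fold, as did 2.79% of all genes upwards and 2.42% downwards, and 0.988% of all genes reached 2-fold. The medians of the ATF4-type factors (-0.02) and of amino acid supply (-0.00) were near 0, and their members lay on both sides of it (10 of 17 and 10 of 19 below). The ATF4-type factors ran from -1.08 for Chac1 to 0.77 for Nupr1, with a mean of -0.12. In fructose medium 12 of these 17 were lower in KO than in WT (70.6%, all genes 47.0%), with a median of -0.14. Of the amino acid supply genes 8 of 19 were lower there (42.1%), with a median of 0.07.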

How the data were processed

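For each probe set the deposited table gives log2 expression on 4 arrays of 1 colour. Per the submitters' processing notes the authors used RMA and R 3.4.0. For the array's annotation, a version or build is not given in the sources used here. Per the labels, 400 ng of RNA per sample was amplified and labelled. The labels name liver as the RNA source in the extraction step and primary hepatocytes as the cell type.

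Of 41345 probe sets, 23521 had 1 gene symbol in the platform table, and 23328 of these were matched by Entrez number to RefSeq (GRCm38.p6, for names). Probe sets of a gene were averaged in log2. Of the synthetases 33 had 1 probe set each, and Nars2 had 2. Differences were computed with Python 3.11.15, pandas 2.3.3 and NumPy 2.4.6, and counted at 1.5-fold (log2 0.585). The counting was tested on simulated data with added shifts larger than the threshold and little noise. This checks the counting itself and says nothing about the spread between replicate arrays, which is unknown here. No count of reads underlies arrays, and their number limits the precision.

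Members and lists were chosen with earlier results of these data known. The 4 array values are printed for members at least 1.5-fold different in a direct comparison. They are also printed for the 3 cytosolic and 3 mitochondrial members with the largest, and the 2 with the smallest, difference in each comparison. Of each pathway list, the 3 genes with the largest WT fructose difference are named, and Mlxipl, Atf4, Ddit3 and Asns always. Other members are named where their group is described, and Qrsl1, Eif2ak2 and Atf5 were named after their values were seen. Alternatives were 2 other scalings, 3 other filters on dim genes, the brightest probe set, values raised to background, the mean and a 2-fold threshold.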

Additional observations from a re-analysis of the deposited data

Results flagged for a closer look

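Vars2, the mitochondrial valyl-tRNA synthetase, differed between genotypes in opposite directions in the 2 media, by at least 0.1 each way. KO minus WT was -0.1 (log2) in control medium and 0.37 in fructose medium. With 1 array per group, this difference was not tested.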

How the results depend on the processing

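No paired analysis was possible because each group has 1 array, and for the same reason no array could be left out. Group medians moved by at most 0.08 (log2) under any alternative, below the 0.1 taken as a change, in 80 of 80 recomputed medians. That limit was set by hand and exceeds several of the medians themselves. The cytosolic WT fructose value, for example, was 0.05 as a median and 0.12 as a mean. The filters, the brightest probe set and the raising to background could not move the cytosolic medians. All 18 cytosolic genes have 1 probe set and lie well above background. The cytosolic KO fructose median, from -0.02 to 0.02, and the mitochondrial difference of effects, from -0.03 to 0.03, crossed 0. The mitochondrial fructose medians ranged from -0.27 to -0.15 in WT and from -0.23 to -0.14 in KO. Of 80 recomputed counts 76 stayed within 1.5 times, but most of these were 0 at the outset and stayed 0, so they say little about stability. Repeated quantile normalization lowered the mitochondrial count in WT from 3 to 2, which is inside that limit, by taking Tars2 below the threshold. At a 2-fold threshold the counts of synthetases that differed with fructose were 0 for cytosolic genes in WT, 0 for mitochondrial genes in WT and 0 for mitochondrial genes in KO. With the filter 1 log2 unit above background, 11 mitochondrial genes were left and 1 was at least 1.5-fold lower in KO, since Rars2 was filtered out. Median centring and repeated quantile normalization moved the median of all named genes by less than 0.1.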

Other observations

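Nars2 was measured by a brighter and a dimmer probe set. The brighter had log2 levels of 5.80 and 5.92 in WT and 5.99 and 6.15 in KO. The dimmer lay below background, at 3.94, 3.88, 4.14 and 3.96. Their fructose differences in KO had opposite signs, 0.16 and -0.19.

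Hars and Hars2 were the only synthetase genes next to each other among protein-coding genes in the RefSeq table. Their fructose differences were 0.02 and -0.09 in WT and -0.19 and -0.06 in KO.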
